A study of Rattus norvegicus with 15 samples.

Results

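The receptors of the endocannabinoids and the enzymes that make and break down these lipids were followed as 9 genes, *Cnr1*, *Cnr2*, *Dagla*, *Daglb*, *Mgll*, *Abhd6*, *Abhd12*, *Napepld* and *Faah*, out of 14506 genes measured under a name in the inferior colliculus (IC) of the rat. Each gene was found by its symbol in the annotation of the array platform, and the brightest probe set over all arrays was to be taken. Each of the 9 had 1 probe set, so none had to be chosen. The IC is the midbrain auditory nucleus in which audiogenic seizures begin. RNA from both sides of the IC was read on Affymetrix rat gene arrays. On these a set of probes spread along the transcript gives 1 log2 value per gene.

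By the label of each array, 5 arrays came from Wistar Audiogenic Rats (WAR), a strain bred for seizures triggered by loud sound, taken 60 min after acoustic stimulation (WAR S), and 2 from stimulated Wistar rats (Wistar S). Another 4 came from WAR rats with no exposure to sound (WAR N) and 4 from Wistar rats with no exposure (Wistar N). All rats were males of 12 weeks. The methods text describes stimulated WAR rats as having had seizures and stimulated Wistar rats as not responding to the sound. In the stimulated comparison, and in its difference from the naïve one, strain and seizure therefore cannot be told apart. The 2 strains had different suppliers in the sample labels, although the methods text names a single facility for both, so strain and supplier cannot be told apart. The methods text and the general notes of the deposit also give other numbers of stimulated rats than the labels, and the label of each array was followed.

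Endocannabinoids are lipids that a postsynaptic neuron makes on demand and that travel backward across the synapse to the CB1 receptor on the presynaptic terminal, where they reduce transmitter release. The 2 best known are 2-arachidonoylglycerol (2-AG) and anandamide. Diacylglycerol lipases make 2-AG and monoacylglycerol lipase, with smaller parts played by ABHD6 and ABHD12, breaks it down, whereas anandamide is released by NAPE-PLD, among other routes, and hydrolyzed by fatty acid amide hydrolase. In many brain regions CB1 receptor activation is known to limit excitatory transmission during seizures.

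Each pair of stimulated arrays held 2675 to 3286 identical values, each pair of naïve arrays 2 to 13, and no mixed pair held any. From this the 2 parts were treated as separate normalizations, and the strains were compared only within each part. Wistar N replicate 1 stood apart from its group. Its median absolute distance from the mean of the other Wistar N arrays was 0.257 on the log2 scale, against 0.062 to 0.178 for the other 14 arrays, and its mean over 10 endothelial markers was 8.21, against 7.25 to 7.31 in the other Wistar N arrays. Its mean over 8 oligodendrocyte markers was 11.86, against 11.21 to 11.45. The naïve fold changes of the 9 genes are accordingly given with and without this array, and the lists of other genes by their counts of calls with and without it. Running numbers in the labels split the arrays into 2 label sets, and Wistar N replicate 1 and both Wistar S arrays belong to set 1. No source names the sets as batches. The lowest of the 13 neuron markers had a group mean of 7.99. This was above the 90th percentile of 5.75 among 53 olfactory receptor genes with Olr symbols, which are not known to be used in this tissue. Olfactory receptor genes under other symbols were not taken. Every one of the 9 genes read above all 53 on the mean of the arrays. This is a rough guide only, since each gene has its own probes.

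With sound, none of the 9 genes was called in WAR S against Wistar S at the limma adjusted p threshold of 0.05, while 60 of the 14506 genes were, 0.414%. At an unadjusted p under 0.05, 1 of the 9 (*Mgll*) passed, where 6.85% of all genes did. Their log2 fold changes had a median of −0.00011, against 0.01 over all genes, and none reached a 2-fold difference. In naïve rats 1 of the 9, *Mgll*, was lower in WAR N and none was higher, where 9.38% of all genes were called lower, 11.6% were called higher and 20.9% were called in total. The median of the 9 was 0.03, against 0.02 over all genes. At an unadjusted p under 0.05, 3 of the 9 passed (*Mgll*, *Dagla* and *Abhd6*), where 34.5% of all genes did, so their share was near that of all genes.

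**Figure D1:**
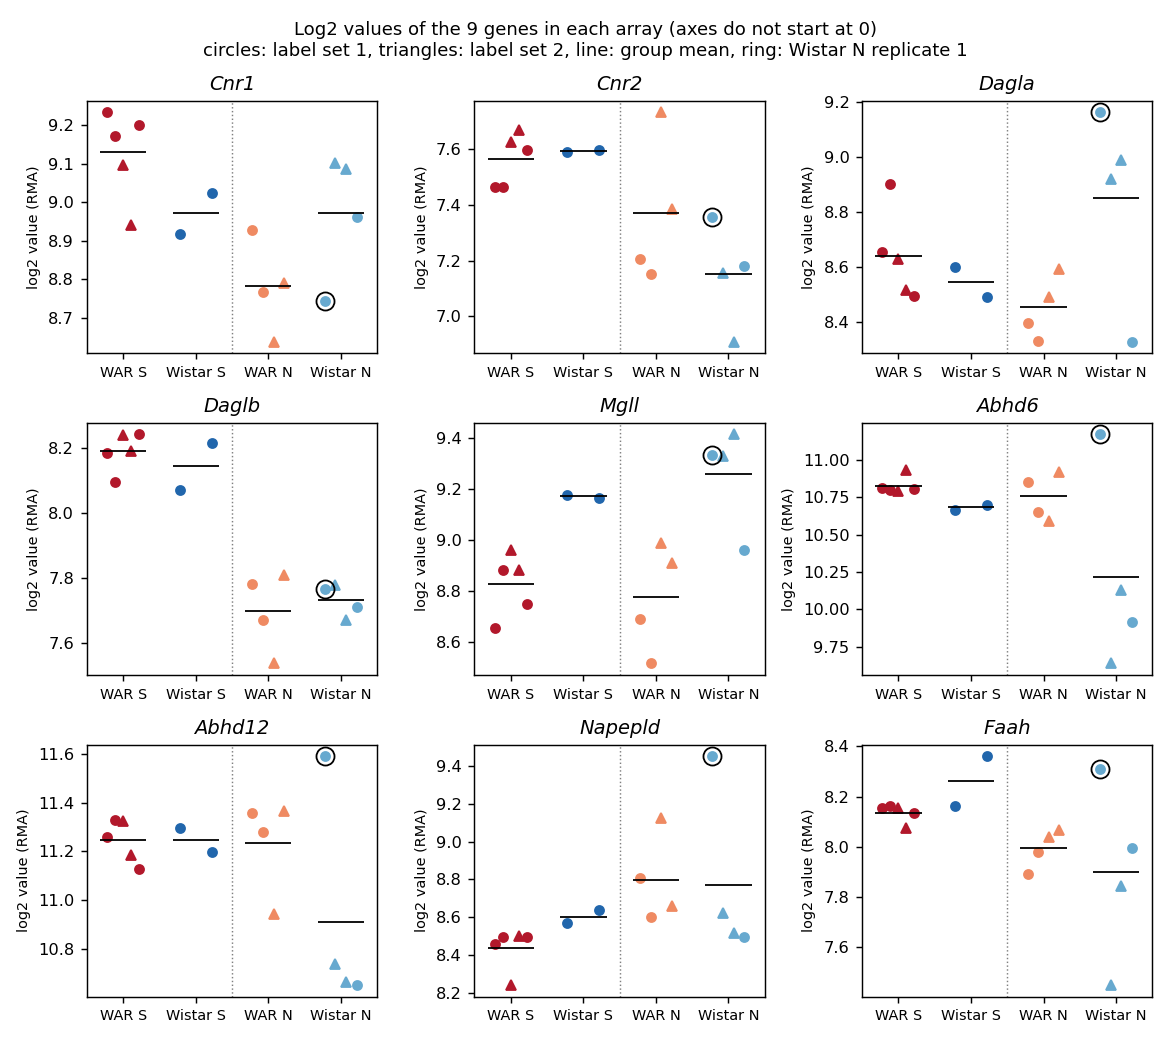
Log2 values of the 9 genes, 1 point per array, with WAR S, Wistar S, WAR N and Wistar N along each x axis and the log2 value on the y axis. The line is the group mean, circles and triangles are label sets 1 and 2, the ring marks Wistar N replicate 1, and both Wistar S arrays of *Mgll* (9.18 and 9.16) lie above all 5 WAR S arrays.

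The plot of all array values shows how tightly most stimulated arrays lay together and how far Wistar N replicate 1 lay from its group for *Abhd6*, *Abhd12* and *Napepld*. Levels on this plot can be read between strains within a part and not between genes, since each gene has its own probes. Because these were bulk samples, fewer cells of a type and less RNA per cell cannot be told apart.

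*Cnr1* encodes CB1, the main cannabinoid receptor of neurons. Its log2 values were 9.23, 9.17, 9.10, 8.94 and 9.20 in WAR S, against 8.92 and 9.03 in Wistar S. Most WAR S arrays lay above both Wistar S arrays, but replicate 4 lay between them. WAR S minus Wistar S was 0.16 on the log2 scale (95% confidence interval −0.08 to 0.39, limma adjusted p = 1). In naïve rats *Cnr1* measured 8.93, 8.77, 8.64 and 8.79 in WAR N, against 8.74, 9.10, 9.09 and 8.96 in Wistar N. Here 3 Wistar N arrays lay above all WAR N arrays, and Wistar N replicate 1 lay among the WAR N arrays. WAR N minus Wistar N was −0.19 on the log2 scale (95% confidence interval −0.39 to 0.01, limma adjusted p = 0.161). Without Wistar N replicate 1 it was −0.27 (95% confidence interval −0.45 to −0.09), a 1.20-fold lower level in WAR N, with a limma adjusted p of 0.0194, and the groups no longer overlapped. Within label sets, with all naïve arrays, the difference was −0.004 in set 1 and −0.38 in set 2, and set 1 without Wistar N replicate 1 gave −0.11.

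*Cnr2* encodes CB2, the receptor known mainly from immune cells and, in brain, from microglia. The 5 WAR S arrays averaged 7.56 ± 0.09 (SD) and the 2 Wistar S arrays 7.59 ± 0.01 (SD). In naïve rats it averaged 7.37 ± 0.26 in WAR N and 7.15 ± 0.18 in Wistar N (SD, n = 4 each). The log2 fold changes were −0.03 and 0.22, with limma adjusted p of 1 and 0.213. The highest naïve value, 7.73 in WAR N replicate 3, stood against 7.36 in the highest Wistar N array. The naïve log2 fold change without Wistar N replicate 1 was 0.29 (limma adjusted p = 0.0679). With all naïve arrays the difference was −0.09 in label set 1 and 0.53 in label set 2, and set 1 without Wistar N replicate 1 gave −0.0014.

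Of the enzymes that make 2-AG from diacylglycerol, *Dagla* encodes the lipase that supplies most synaptic 2-AG in the adult mouse brain and *Daglb* its close relative, known also from microglia and macrophages. *Dagla* measured 8.66, 8.90, 8.63, 8.52 and 8.50 in WAR S, against 8.60 and 8.49 in Wistar S. It measured 8.40, 8.33, 8.49 and 8.59 in WAR N, against 9.16, 8.92, 8.99 and 8.33 in Wistar N. In the naïve arrays 3 Wistar N values lay above every WAR N value, and Wistar N replicate 4 lay at the bottom of both groups. The naïve log2 fold change was −0.40 (95% confidence interval −0.71 to −0.08, limma adjusted p = 0.0682), which did not pass. With all naïve arrays it was −0.38 in label set 1 and −0.41 in label set 2, and set 1 without Wistar N replicate 1, which leaves Wistar N replicate 4 alone, gave 0.03. Leaving out Wistar N replicate 4 made it −0.57 with an adjusted p of 0.00426, and leaving out Wistar N replicate 1 made it −0.29 with an adjusted p of 0.11. In stimulated rats the log2 fold change was 0.09 (adjusted p = 1). *Daglb* differed little in either part, with log2 fold changes of 0.05 (95% confidence interval −0.13 to 0.22) in stimulated and −0.03 (−0.18 to 0.12) in naïve rats, and of −0.02 (limma adjusted p = 0.84) in naïve rats without Wistar N replicate 1. Its intervals were the narrowest of the 9 genes in the 2 comparisons.

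*Mgll* encodes monoacylglycerol lipase, the enzyme that hydrolyzes most 2-AG in brain and so ends its signal. It was the 1 gene of the 9 that passed the test, in naïve rats, and its log2 fold change was negative in both parts. Its log2 values were 8.65, 8.88, 8.96, 8.88 and 8.75 in WAR S, against 9.18 and 9.16 in Wistar S. All 5 WAR S arrays lay below both Wistar S arrays, with a gap of 0.202 between the groups. The log2 fold change was −0.34 (SE 0.137, 95% confidence interval −0.64 to −0.05), a 1.27-fold lower level in WAR S. Its unadjusted p was 0.0251 and its limma adjusted p was 0.556, so it did not pass across all genes. A two-sided exact permutation over the arrays gave p = 0.0476, which 5 arrays against 2 cannot go below.

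In naïve rats *Mgll* measured 8.69, 8.52, 8.99 and 8.91 in WAR N, against 9.33, 9.33, 9.41 and 8.96 in Wistar N. The groups overlapped through Wistar N replicate 4 alone, whose 8.96 lay just under WAR N replicate 3. The log2 fold change was −0.48 (SE 0.116, 95% confidence interval −0.73 to −0.23), a 1.40-fold lower level in WAR N, with a limma adjusted p of 0.0106. The two-sided exact permutation test gave p = 0.0571, where 4 against 4 can reach 0.0286. Without Wistar N replicate 1 the log2 fold change was −0.46 with a limma adjusted p of 0.00869, and the call held without each naïve array in turn. It was lost with only the naïve groups in the model, which leaves the spread to 8 arrays (adjusted p = 0.0699), and with only the arrays of label set 1 (0.114). The shared spread includes the stimulated arrays, which lay closer together. The SD of *Mgll* was 0.214 in WAR N and 0.203 in Wistar N, against 0.122 in WAR S and 0.0104 in Wistar S. Within label sets the WAR mean of *Mgll* lay below the Wistar mean each time the strains could be set side by side, with log2 differences of −0.41 in stimulated set 1, −0.54 in naïve set 1 (−0.355 without Wistar N replicate 1) and −0.42 in naïve set 2.

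**Figure D2:**
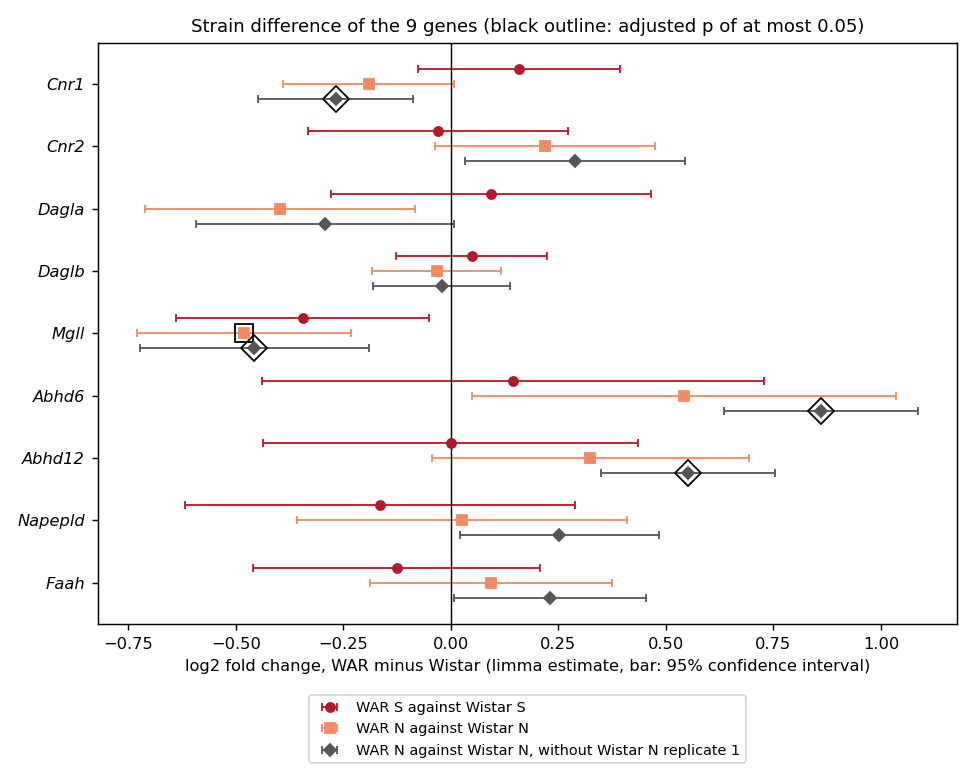
Log2 fold change of each gene, WAR minus Wistar, on the x axis with the limma 95% confidence interval as a bar, for stimulated arrays (circles), naïve arrays (squares) and naïve arrays without Wistar N replicate 1 (diamonds). A black outline marks an adjusted p of at most 0.05, which *Mgll* had in naïve rats (−0.48), with *Cnr1*, *Abhd6* and *Abhd12* joining it without Wistar N replicate 1.

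The plot of fold changes shows the 3 estimates of *Mgll* all below 0 and those of *Abhd6* all above it. Those of *Abhd12* were at 0 in stimulated rats and above it in naïve rats, and those of the other 6 genes lay on both sides. *Abhd6* and *Abhd12* encode serine hydrolases that also cleave 2-AG, ABHD6 on the inner face of the postsynaptic membrane and ABHD12 facing the outside or the lumen. *Abhd6* measured 10.81, 10.80, 10.79, 10.93 and 10.81 in WAR S, against 10.67 and 10.70 in Wistar S. The groups were apart by 0.0918, with WAR S above, at a log2 fold change of 0.14 (limma adjusted p = 1) and an exact permutation p of 0.0476, again the smallest possible. The wide interval (−0.44 to 0.73) comes from the shared spread, to which the Wistar N arrays contribute. When Wistar N replicate 1 was left out of it, the interval was −0.10 to 0.39 and the adjusted p was 0.898. In all, 3 of the 9 genes had stimulated groups that did not overlap (*Mgll* and *Napepld* with WAR S below, *Abhd6* with WAR S above), where 20.7% of all genes had such groups. In naïve rats no gene of the 9 did, where 13.4% of all genes did.

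In naïve rats *Abhd6* measured 10.86, 10.65, 10.59 and 10.92 in WAR N, against 11.17, 9.64, 10.13 and 9.92 in Wistar N. Wistar N replicate 1 was above all WAR N arrays, and the other 3 Wistar N arrays were below all of them. The log2 fold change was 0.54 (95% confidence interval 0.05 to 1.03, limma adjusted p = 0.11), and without Wistar N replicate 1 it was 0.86 (0.63 to 1.09), a 1.82-fold higher level in WAR N with an adjusted p of 1.98e-05. *Abhd12* had the same arrangement, with 11.36, 11.28, 10.94 and 11.37 in WAR N, against 11.59, 10.74, 10.66 and 10.65 in Wistar N. Its log2 fold change was 0.32 (limma adjusted p = 0.2), and without Wistar N replicate 1 it was 0.55, a 1.47-fold higher level in WAR N with an adjusted p of 0.000341. With sound, *Abhd12* averaged 11.25 ± 0.09 (SD) over the 5 WAR S arrays and 11.25 ± 0.07 (SD) over the 2 Wistar S arrays. Without Wistar N replicate 1 limma called 41.1% of all genes between naïve strains, and 4 of the 9 genes were called (*Mgll* and *Cnr1* lower in WAR N, *Abhd6* and *Abhd12* higher), so their share lay close to that of all genes.

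The promoters of the 3 enzymes that hydrolyze 2-AG are shown because 3 of the 4 naïve calls without Wistar N replicate 1 were in these genes, *Mgll* lower and the other two higher in WAR N. RefSeq promoters of the assembly GRCr8, from 250 bases before to 50 bases after the transcript start, were found for 7 of the 9 genes, with the dinucleotide CG, which reads the same on both strands, in capitals.
Mgll (chr4:122749186-122749485, plus strand): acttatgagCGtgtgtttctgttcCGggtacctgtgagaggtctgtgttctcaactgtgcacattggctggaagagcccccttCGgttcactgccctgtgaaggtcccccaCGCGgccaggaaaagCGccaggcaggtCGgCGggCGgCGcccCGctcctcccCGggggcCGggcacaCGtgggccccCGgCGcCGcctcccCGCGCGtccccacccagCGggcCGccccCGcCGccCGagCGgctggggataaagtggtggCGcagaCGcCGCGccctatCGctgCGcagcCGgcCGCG
Abhd6 (chr15:19337144-19337443, minus strand): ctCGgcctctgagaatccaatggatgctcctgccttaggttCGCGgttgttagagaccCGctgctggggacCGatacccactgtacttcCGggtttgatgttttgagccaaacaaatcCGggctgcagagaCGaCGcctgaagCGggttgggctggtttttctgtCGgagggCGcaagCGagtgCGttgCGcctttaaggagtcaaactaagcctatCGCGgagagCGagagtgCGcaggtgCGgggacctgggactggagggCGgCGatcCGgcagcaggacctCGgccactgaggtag
Abhd12 (chr3:160179880-160180179, minus strand): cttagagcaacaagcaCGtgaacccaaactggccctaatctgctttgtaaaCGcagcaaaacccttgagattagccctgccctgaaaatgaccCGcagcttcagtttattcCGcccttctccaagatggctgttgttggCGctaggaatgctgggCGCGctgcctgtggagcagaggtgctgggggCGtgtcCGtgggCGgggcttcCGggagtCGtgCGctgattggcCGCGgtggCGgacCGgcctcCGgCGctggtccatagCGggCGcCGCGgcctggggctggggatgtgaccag
The *Mgll* promoter holds 35 CG, more than 90.2% of the promoters of 11968 measured genes, whose median is 16. The *Abhd6* promoter holds 24, more than 69.5% of them, and the *Abhd12* promoter holds 23, more than 66.9%. These counts describe the sequence and were not set against the expression values.

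*Napepld* encodes the phospholipase D that releases anandamide and related amides from membrane lipids. It measured 8.46, 8.50, 8.24, 8.50 and 8.50 in WAR S, against 8.57 and 8.64 in Wistar S, so that all WAR S arrays lay below both Wistar S arrays by at least 0.0662. The log2 fold change was −0.16 (95% confidence interval −0.62 to 0.29, limma adjusted p = 1), and the two-sided exact permutation p was 0.19. In naïve rats it measured 8.81, 8.60, 9.12 and 8.66 in WAR N, against 9.45, 8.62, 8.52 and 8.49 in Wistar N. Wistar N replicate 1 was again the highest array. The log2 fold change was 0.03 (adjusted p = 0.935), and without that array it was 0.25 (adjusted p = 0.0771). With all naïve arrays the difference was −0.27 in label set 1 and 0.32 in label set 2, and set 1 without that array gave 0.21, of the opposite sign.

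*Faah* encodes fatty acid amide hydrolase, which ends the action of anandamide. The 5 WAR S arrays averaged 8.14 ± 0.04 (SD) and the 2 Wistar S arrays 8.26 ± 0.14 (SD), and 1 WAR S array and 1 Wistar S array shared the value 8.16. It averaged 7.99 ± 0.08 in WAR N and 7.90 ± 0.36 in Wistar N (SD, n = 4 each). The 4 WAR N arrays lay within the span of the Wistar N arrays, which ran between 7.45 and 8.31. The log2 fold changes were −0.13 and 0.09, with limma adjusted p of 1 and 0.653. Without Wistar N replicate 1 the naïve value was 0.23 (adjusted p = 0.091). With all naïve arrays the difference was −0.22 in label set 1 and 0.41 in label set 2, and set 1 without that array gave −0.06.

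The difference between the strain effects, stimulated minus naïve, was tested for each gene in the same limma fit. None of the 9 genes passed, where 0.103% of all genes did. At an unadjusted p under 0.05, 2 of the 9 passed, where 15% of all genes did. For *Cnr1* the difference was 0.35 (95% confidence interval 0.04 to 0.66, adjusted p = 0.274), from a strain difference of 0.16 in stimulated and −0.19 in naïve rats. For *Dagla* it was 0.49 (95% confidence interval 0.01 to 0.98, adjusted p = 0.326). For *Mgll* it was 0.14 (95% confidence interval −0.25 to 0.52, adjusted p = 0.766), an interval that holds values of both signs. Without Wistar N replicate 1 limma called 20.4% of all genes here, and 3 of the 9 were called. The values were 0.43 for *Cnr1* (adjusted p = 0.0264), −0.72 for *Abhd6* (0.00511) and −0.55 for *Abhd12* (0.0127). In the stimulated comparison, where leaving this array out changes only the shared spread, 1.8% of all genes and again none of the 9 were called.

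**Figure D3:**
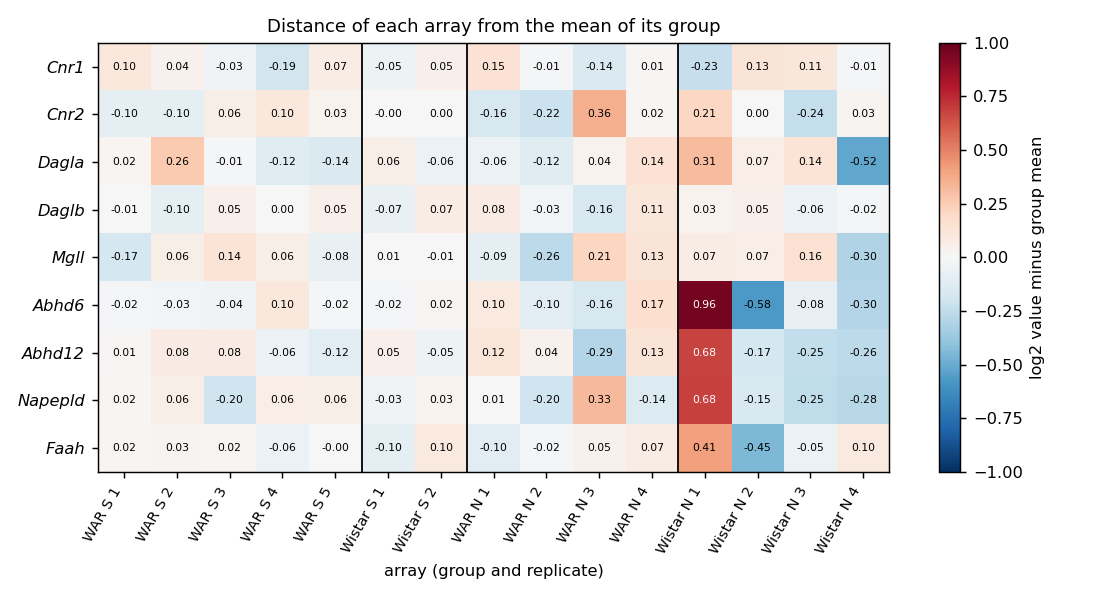
Log2 value of each array minus the mean of its group, for the 9 genes (rows) and the 15 arrays (columns, by group and replicate), in color from −1 to 1 with the value written in each cell. Wistar N replicate 1 has the largest distance of its group for *Abhd6* (0.96), *Abhd12* (0.68) and *Napepld* (0.68), while for *Faah* replicate 2 (−0.45) lies farther out than replicate 1 (0.41).

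Among arrays of the same group, the 9 genes did not move as a unit. The map of distances from the group means shows *Abhd6*, *Abhd12*, *Napepld* and *Faah* high together in Wistar N replicate 1, in which *Cnr1* was low by 0.23. As a description over these 15 deviations, which share 1 outlying array, Pearson's r was 0.87 between *Abhd6* and *Abhd12*, 0.79 between *Abhd6* and *Faah* and 0.73 between *Abhd6* and *Napepld*. It was −0.72 between *Cnr1* and *Cnr2*, and 0.68 between *Dagla* and *Mgll*, both of which were low in Wistar N replicate 4 (by 0.52 and 0.30). Of all genes, those whose deviations were most like those of *Cnr1* over the 15 arrays were *Tacc1* (r = 0.94), *Myo5a* (0.94) and *Lztr1* (0.93). For *Mgll* they were *Sftpd* (r = 0.91), *Ggt6* (0.90) and *Erf* (0.90).

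Levels of cell type markers moved with the strain as well. The 10 astrocyte markers had a mean log2 value per array of 11.22 to 11.44 in WAR S, against 11.65 to 11.67 in Wistar S, and of 11.03 to 11.26 in WAR N, against 11.38 to 11.55 in Wistar N. All 10 had a negative log2 fold change in stimulated rats (median −0.25, none called). In naïve rats 7 were negative and 3 positive (*Aqp4*, *Slc1a2* and *S100b*), with a median of −0.36. There 4 were called lower (*Aldh1l1*, *Slc1a3*, *Gjb6* and *Slc6a11*) and none higher, where 9.38% of all genes were called lower. *Mgll* and the mean of the astrocyte markers were both lower on average in WAR rats, with and without sound. The part of the markers in the result was not tested. As a description within groups, Pearson's r over 15 arrays was −0.59 between the deviations of *Mgll* and those of the marker mean. This value describes arrays within groups and not the difference between the strains.

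**Figure D4:**
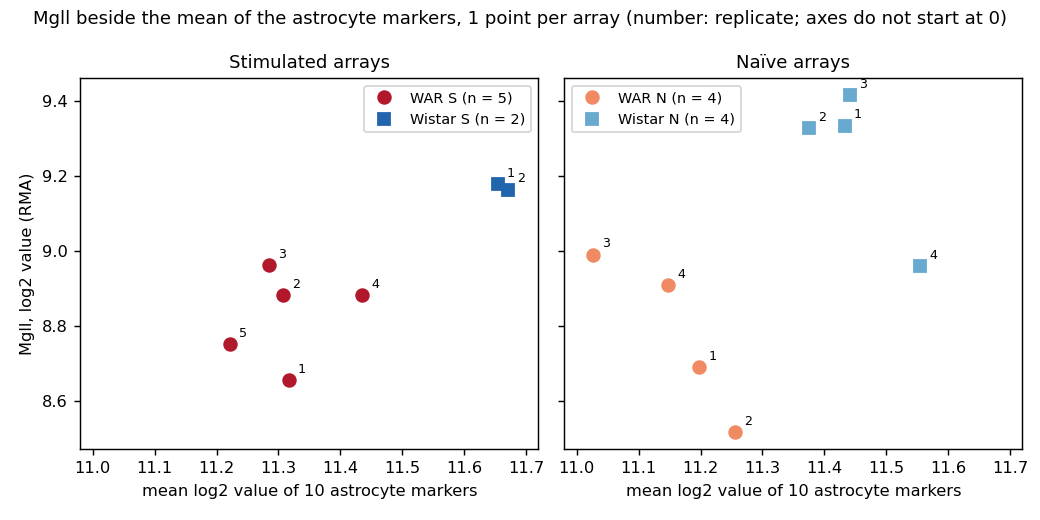
*Mgll* log2 value (y axis) against the mean log2 value of 10 astrocyte markers (x axis), 1 point per array with its replicate number, for stimulated arrays (left) and naïve arrays (right). The WAR arrays lie to the left of the Wistar arrays in both parts, at 11.22 to 11.44 against 11.65 to 11.67 in stimulated and 11.03 to 11.26 against 11.38 to 11.55 in naïve rats.

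The plot of *Mgll* against the astrocyte markers shows the strains apart along the marker axis in both parts, with Wistar N replicate 4 high in the markers and low in *Mgll*. Of 13 neuron markers none was called in stimulated rats, and in naïve rats 5 were called lower in WAR N (*Gad1*, *Slc32a1*, *Slc17a6*, *Nefm* and *Eno2*) and none higher, while 7 of the 13 had a positive log2 fold change (median 0.025). With Wistar N replicate 1 left out, 3 were called higher and 5 lower (median 0.194), so the neuron markers had no common direction. Their mean per array was 10.97 to 11.18 in WAR S, against 10.95 to 11.07 in Wistar S, and 10.62 to 10.95 in WAR N, against 10.85 to 11.17 in Wistar N. Of 10 microglia markers 6 had a positive and 4 a negative log2 fold change in stimulated rats. In naïve rats 7 were positive and 3 negative (*Csf1r*, *Itgam* and *C1qc*). Among the 10 microglia markers 1 (*P2ry12*) was called higher in WAR S and 4 in WAR N (*P2ry12*, *Trem2*, *Tmem119* and *C1qb*), and none lower. Their mean per array was 8.17 to 8.51 in WAR S, against 8.06 to 8.11 in Wistar S, and 8.13 to 8.23 in WAR N, against 7.80 to 7.93 in Wistar N, while *Cnr2* was not called in either part. Of 10 endothelial markers 1 (*Tek*) was called higher in WAR S and 4 in WAR N (*Tek*, *Pecam1*, *Slco1a4* and *Emcn*). All 10 had a positive log2 fold change in both parts (median 0.426 in stimulated and 0.517 in naïve rats). As a description over 15 deviations, Pearson's r with the endothelial mean was 0.835 for *Abhd6*, 0.80 for *Abhd12* and −0.635 for *Cnr1*. With the oligodendrocyte mean it was 0.874, 0.708 and −0.56. These values share the outlying Wistar N replicate 1, and the part of the markers was not tested. Leaving out Wistar N replicate 1 gave naïve calls of 8 higher and none lower among the endothelial markers, 4 higher and 2 lower among the microglia markers, and 1 higher and 4 lower among the astrocyte markers. The other lists had few calls, all in naïve rats except for hemoglobin *Hbb*, which was lower in WAR rats in both parts: *Mog* higher and *Mag* lower among 8 oligodendrocyte markers, *Cbln1* lower among 9 cerebellar and *Ddn* lower among 5 forebrain markers, and none among 6 choroid plexus markers. In these lists, leaving out that array gave naïve calls of 3 higher and 1 lower among the oligodendrocyte markers, 1 higher and 3 lower among the cerebellar, 2 lower among the forebrain, 1 lower among the red blood cell and none among the choroid plexus markers.

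Around the 9 genes, 59 measured genes in 7 lists cover other receptors, other routes of synthesis and degradation, CB1 partners, the Gq arm that raises diacylglycerol for 2-AG synthesis, diacylglycerol kinases and arachidonate enzymes. In stimulated rats none of the 59 was called, and their median log2 fold change was −0.00018. The smallest unadjusted p in each list belonged to *Ppara* (−0.28), *Abhd4* (−0.36), *Ptgs2* (0.30), *Grk3* (−0.29), *Chrm3* (0.38), *Dgkg* (0.26) and *Acsl4* (0.32), with limma adjusted p of 0.456 or more. In naïve rats 6 were called higher and 7 lower in WAR N, 22% of the 59 where 20.9% of all genes were called, and without Wistar N replicate 1 the counts were 16 and 16, where 41.1% of all genes were called. The difference between the strain effects passed for none of the 59, and without that array for 5 in the positive and 7 in the negative direction, where 20.4% of all genes passed.

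**Figure D5:**
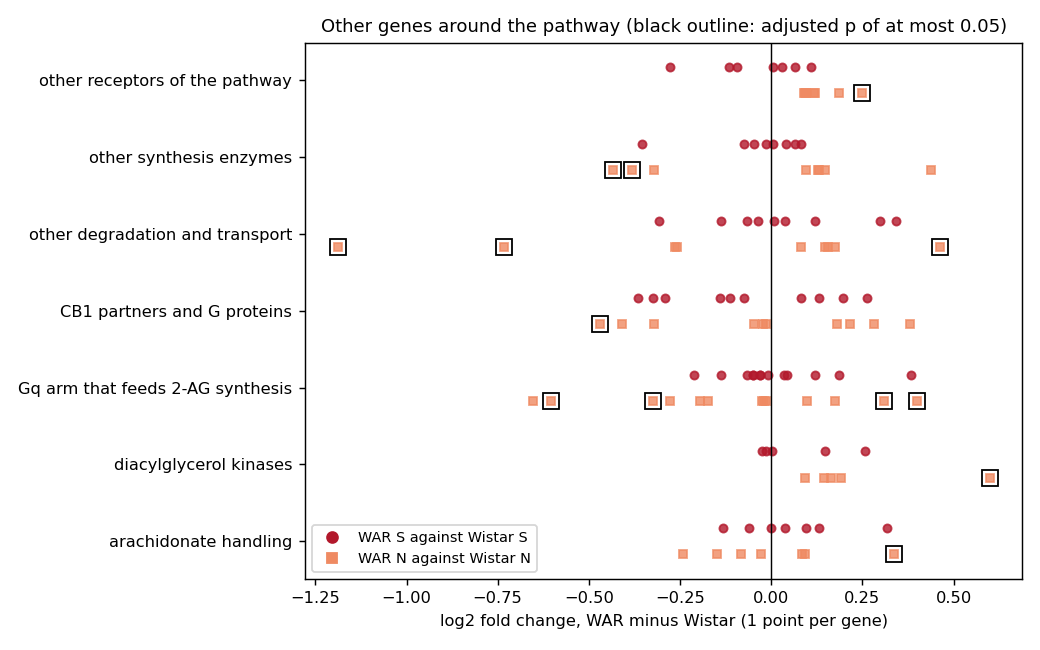
Log2 fold change, WAR minus Wistar (x axis), of 59 genes in 7 lists (y axis), 1 point per gene, for stimulated (circles) and naïve arrays (squares). A black outline marks an adjusted p of at most 0.05, which 6 genes had on the right of 0 and 7 on the left, all in naïve rats.

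The plot of the 7 lists shows calls on both sides of 0 in naïve rats, with at least 1 in each list. In WAR N, 1 of 7 other receptors was called higher, 2 of 8 other synthesis enzymes lower, and of 9 other degradation and transport genes 1 higher and 2 lower. Of 10 CB1 partners and G proteins 1 was called lower, and of 13 genes of the Gq arm 2 were called higher and 2 lower. Of 5 diacylglycerol kinases 1 was called higher, and of 7 arachidonate enzymes 1. On the anandamide side, *Gde1*, a phosphodiesterase of an alternative route to anandamide known from mouse, fell to a mean of 9.73 ± 0.11 in WAR N, against 10.17 ± 0.17 in Wistar N (SD, n = 4 each), a log2 fold change of −0.44 (limma adjusted p = 0.00609). *Plaat1*, of the family of acyltransferases that can form the precursor lipids, fell by 0.38 on the log2 scale (adjusted p = 0.00276). *Naaa*, an acid amidase that degrades N-acylethanolamines in lysosomes, fell by 0.73 (0.00853). *Fabp5* and *Fabp7* encode fatty acid binding proteins that carry lipids within the cell. *Fabp5* rose by a log2 fold change of 0.46 (adjusted p = 0.00588), and *Fabp7* fell by 1.19 (0.0255). *Gpr119*, a receptor for oleoylethanolamide, rose by 0.25 (0.0118) at a low mean of 5.58 in WAR N and 5.33 in Wistar N, within the range of the olfactory receptor genes. The call among the CB1 partners was *Grk2*, a kinase that phosphorylates active receptors, at −0.47 (0.0259).

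On the 2-AG side, *Gna11*, a G protein subunit that couples receptors to phospholipase C, had the smallest p of the 59 genes. It averaged 8.98 ± 0.11 in WAR N and 9.58 ± 0.23 in Wistar N (SD, n = 4 each), and its log2 fold change was −0.60 (limma adjusted p = 0.00167). Among the 13 called genes, the naïve groups did not overlap for *Gna11*, *Gde1*, *Plaat1*, *Naaa*, *Fabp5*, *Gpr119*, *Plcb3* and *Plcb4*. These genes were picked by their calls, so the 13.4% of all genes with such groups is no reference for them. Of the 59 genes, *Ptpn22* had such groups without being called (limma adjusted p = 0.15). Of the phospholipases C that form diacylglycerol, *Plcb3* fell by 0.32 (adjusted p = 0.0155) and *Plcb4* rose by 0.31 (0.0141). *Chrm3*, a muscarinic receptor of this arm, rose by 0.40 (0.0276), and its stimulated log2 fold change was 0.38 (adjusted p = 0.456). *Dgka*, a kinase that removes diacylglycerol by phosphorylation, rose by 0.60 (0.0202), and *Ptges*, which makes prostaglandin E2 from an arachidonate product, rose by 0.34 (0.0377). All 13 calls held without Wistar N replicate 1, where the largest fold changes were −1.59 for *Fabp7* and 0.78 for *Dgka*, and 7 held without each naïve array in turn (*Gpr119*, *Gde1*, *Plaat1*, *Naaa*, *Fabp5*, *Gna11* and *Plcb4*). *Plcb3* was lost without Wistar N replicate 3 alone (adjusted p = 0.0514), and *Fabp7*, *Grk2*, *Chrm3*, *Dgka* and *Ptges* were lost without each of at least 4 of the 8 arrays. With only the naïve groups in the model 5 of the 13 passed. In stimulated rats none of the 13 was called. Beside *Chrm3*, their stimulated log2 fold changes were −0.36 for *Grk2*, −0.31 for *Fabp7*, 0.19 for *Plcb4*, −0.14 for *Naaa* and 0.13 for *Ptges*. They were smaller for *Gde1* (−0.07), *Plcb3* (−0.05), *Fabp5* (−0.03), *Gpr119* (0.03), *Dgka* (−0.01), *Plaat1* (−0.01) and *Gna11* (−0.007).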

How the data were processed

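The data are 15 Affymetrix arrays, 1 per IC sample, grouped by label. The deposited values are on the log2 scale, made by the authors with RMA (version not given in the sources used here), which corrects background, quantile normalizes and summarizes probes. They were used unchanged, so signal over background was not recomputed. Of the sample columns, 0 were unused.

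Of 29214 probe sets, 15310 carried 1 gene symbol in the platform annotation, 323 carried several and 13581 carried none. Only the first were used, with the probe set of the highest mean kept per gene. By gene ID 15279 of them were found in RefSeq (GRCr8), which changed 0 symbols. A model with 1 mean for each group was fitted to all 15 arrays, so that they shared the spread, with limma 3.58.1 (R 4.3.3), and p-values were adjusted by Benjamini-Hochberg across the 14506 genes (threshold 0.05). The steps were tested on simulated data. Single genes were also tested with a two-sided exact permutation test, 18 tests in all. The labels call the samples biological replicates. SAM, named in the methods text, was not run, and its thresholds (a fold change of at least 2, an unadjusted p of at most 0.05) were used as an alternative.

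The 9 genes, the pathway lists and the marker lists were chosen with earlier results of these data known. Named genes were the 9, the genes of each pathway list that passed (at most 4 per comparison, otherwise the 1 with the smallest p) and the 3 genes most like *Cnr1* and *Mgll*. Marker genes named as called, and the genes listed as held or lost without single arrays, were named to account for small counts. Alternatives were other samples in the model, blocks, array weights, variance priors, filters, scalings and each array left out. Leaving Wistar N replicate 1 out of the shared spread of the stimulated comparison was chosen after seeing the data.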

Additional observations from a re-analysis of the deposited data

Results flagged for a closer look

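Of 27 sets of 4 or 5 values (9 genes in WAR S, WAR N and Wistar N), 4 held an array far from the others of its group, where chance gives about 1 in 20. In Wistar N replicate 1, *Abhd12* measured 11.59, against 10.74 in the next array of the group, and *Napepld* measured 9.45, against 8.62. In WAR S replicate 4 *Abhd6* measured 10.93, with the nearest array at 10.81, and in WAR S replicate 3 *Napepld* measured 8.24, with the nearest at 8.46. The 2 values of Wistar N replicate 1 come from the array that stood apart over all genes.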

How the results depend on the processing

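Over 27 alternatives, 296 of 324 fold changes of single genes kept their direction and their side of the threshold, 2 lost their call, 8 gained one and 18 changed sign. *Mgll* stayed negative in each of them, between −0.44 and −0.30 in stimulated and between −0.58 and −0.40 in naïve rats. The 2 lost calls were those of *Mgll* named above. With array weights it was called in stimulated rats too (−0.37, adjusted p = 0.00887). *Dagla* gained a naïve call when the arrays were centered on a common median (−0.48, adjusted p = 0.0241). Array weights gave calls to *Abhd6* (0.75) and *Abhd12* (0.54) in naïve rats. Where a sign changed, the fold changes were small or rested on few arrays, and the cause was not tested. *Abhd12* in stimulated rats was 0.0702 with the label set as a block, 0.147 with the replicate block, 0.0083 with array weights and −0.0479 to 0.0476 without single arrays. *Daglb* was −0.0235 to 0.12 in stimulated and −0.0699 to 0.0208 in naïve rats without single arrays, and 0.00731 in naïve rats with array weights. With only label set 1, naïve *Cnr2* was −0.0891, *Napepld* −0.27 and *Faah* −0.22. Naïve *Napepld* was −0.0576 when arrays were centered and −0.0829 to 0.25 without single arrays, and *Faah* was −0.0567 to 0.23.

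In stimulated rats the number of genes called in place of 60 was 274 with only the compared groups, 14 with only label set 1, 16 with the replicate block, 1433 with array weights, 39 at a 2-fold change with an unadjusted p, 261 with Wistar N replicate 1 left out of the shared spread, and 7 to 50 without single arrays, of the 9 genes 1 with array weights and 0 to 0 without single arrays. In naïve rats it was, in place of 3037, 879 with only the compared groups, 217 with only label set 1, 4667 with array weights, 256 at a 2-fold change with an unadjusted p, 5355 with all probe sets tested and 1987 to 5968 without single arrays. Of the 9 genes, 0 were then called with only the compared groups, 0 with only label set 1, 0 at a 2-fold change, 3 with array weights, 2 with centered arrays and 1 to 4 without single arrays. For the difference between the strain effects it was, in place of 15, 0 with the replicate block, 3353 with array weights, 9 with trend and robust variance priors, 36 with centered arrays, 42 with cyclic loess and 0 to 2956 without single arrays, of the 9 genes 3 with array weights and 0 to 3. Centering moved the share of naïve calls that were higher in WAR N to 35.5%, in place of 55.2%, and the median of all genes by under 0.1. The deviations of same-numbered arrays correlated between −0.31 and 0.06. Differently numbered arrays were not set beside them, so these values cannot settle whether the replicate numbers pair the arrays. The replicate block left *Mgll* the only naïve call of the 9. The choice of another probe set could not be run, since each gene has 1.

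Only 2 Wistar S arrays, a single naïve array that stood apart, ties among stimulated arrays and the shared spread limit what these arrays resolve. Marker levels differed between the strains, and their part in the results was not tested. The array levels give no absolute amounts.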
